A study of Mus musculus with 8 samples.

Results

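The pentose phosphate pathway and its cytosolic partner in NADPH supply were examined in liver of male db/db mice that had received either control or AF1 peptide. The 9 genes, chosen by symbol for their place in the pathway and found in 9 of 9 cases among the 21532 genes of the table, were G6pdx, H6pd, Pgls and Pgd of the oxidative arm, Rpia, Rpe, Taldo1 and Tkt of the non-oxidative arm, and Idh1. Every mouse was db/db, that is, without a working long form of the leptin receptor, so the animals overeat, become obese and turn diabetic, and the control mice carried the same genotype. From 8 weeks of age the mice received 5 mg/kg body weight of control or AF1 peptide 2 times per week for 5 weeks by retro-orbital injection, and frozen liver of 4 mice per group gave 1 library each. AF1 peptide is a synthetic peptide made from part of the estrogen receptor ERα, with segments of that part deleted. It is joined to TAT, which carries it into cells. The labels do not say what the control injection contained. There was no lean group, so whether the levels described here are those of a diabetic liver cannot be told.

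The pathway splits off from glycolysis at glucose 6-phosphate. Its oxidative arm turns that sugar into a pentose phosphate and gains NADPH on the way, and its non-oxidative arm shuffles carbons between sugars of different length, so that pentoses can be used for nucleotides or sent back to glycolysis. NADPH is the reducing power for fatty acid and cholesterol synthesis and for keeping glutathione reduced, and in liver the pathway is known to be induced together with lipogenesis by feeding and insulin. H6pd runs the opening oxidative steps inside the endoplasmic reticulum, where its NADPH serves the cortisol-regenerating enzyme Hsd11b1, and Idh1 makes NADPH in the cytosol and peroxisomes from isocitrate.

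None of the 9 genes passed the test between the groups, and the clearest contrast among them lay in 1 mouse. For H6pd, Pgls and Idh1 the intervals held the group difference between 0.83-fold and 1.23-fold. G6pdx, Pgd, Rpia, Taldo1 and Tkt were lowest of all 8 mice in the same animal, AF1 peptide replicate 1, at 36.5 to 50.4% of the control mean. In that mouse Pgls was highest, at 130% of the control mean, with H6pd at 93.0% and Idh1 at 100%. Rpe was lowest in AF1 peptide replicate 3. The contrast rests on AF1 peptide replicate 1. Without that mouse, over 7 mice, Pearson's r ran from -0.87 for Rpia with Idh1 to 0.90 for Taldo1 with Tkt. As examples between these, it was -0.22 for Rpia with Taldo1 and 0.83 for H6pd with Taldo1. In that setting 0 of the 36 pairs passed by adjusted p (exact permutation).

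Reads per library ranged from 23031880 to 45117528. Replicate 1 of the AF1 peptide group stood apart from the other 7 livers over all genes, with a score of -74.25 on the first principal component (39.3% of the variance) against -2.33 to 21.8 elsewhere. It also had the smallest share of mitochondrial reads, 20.8% against 22.4 to 37.8%. The 8 macrophage markers summed to 2767 normalized counts there, against 6101 to 7610 in control livers and 6623 to 7230 in AF1 peptide replicates 2 to 4. It was the lowest mouse for 7 of these 8 markers, and no macrophage marker was at 0 in any group. The 7 hepatocyte markers, Alb and Hnf4a among them, were measured in both groups and summed to 1699363 normalized counts in replicate 1 against 2071380 to 2514128 in the others, a sum made up mostly of Alb. They did not move one way there: Alb, Ttr and Apoa1 were lowest of the 8 mice, at 64.8, 59.4 and 39.5% of the control mean, while Tat, Cps1, Serpina1a and Hnf4a were highest, at 470, 366, 197 and 116%. Of the other marker lists, 2 of 6 neutrophil genes, 5 of 6 red blood cell genes and 1 of 5 fat cell genes could be tested. Red blood cell genes summed to 34147 to 123378 in control mice and 27113 to 51930 in AF1 peptide-treated mice, with replicate 1 lowest. Neutrophil genes summed to 33.6 in replicate 1 against 41.1 to 105 elsewhere, and fat cell genes to 11.2 against 20.1 to 104. The part of these differences in the values that follow was not tested, and the group differences are given with and without that mouse. In whole liver, fewer cells of a type and less RNA per cell cannot be told apart.

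Promoters are shown for 4 of the 5 genes that were lowest in that mouse, because Pgd, Taldo1 and Tkt were the genes whose levels correlated most with one another and G6pdx encodes the entry enzyme. Each is the 250 bases ahead of the RefSeq transcription start (GRCm38.p6), read toward the gene, and capitals mark the letters CCAAT or GGGCGG on either strand, so that ATTGG and CCGCCC are their reverse forms.
G6pdx, chrX:74428881-74429130, minus strand: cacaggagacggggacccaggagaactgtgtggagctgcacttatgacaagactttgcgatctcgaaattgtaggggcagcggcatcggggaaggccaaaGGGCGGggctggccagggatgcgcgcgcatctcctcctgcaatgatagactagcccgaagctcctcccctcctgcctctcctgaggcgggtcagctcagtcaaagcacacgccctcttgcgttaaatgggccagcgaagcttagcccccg
Pgd, chr4:149166706-149166955, minus strand: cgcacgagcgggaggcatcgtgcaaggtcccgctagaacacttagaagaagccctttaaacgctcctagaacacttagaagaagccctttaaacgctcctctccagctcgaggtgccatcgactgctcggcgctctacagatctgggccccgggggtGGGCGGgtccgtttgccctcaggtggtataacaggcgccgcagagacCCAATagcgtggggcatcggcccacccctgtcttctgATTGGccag
Taldo1, chr7:141391910-141392159, plus strand: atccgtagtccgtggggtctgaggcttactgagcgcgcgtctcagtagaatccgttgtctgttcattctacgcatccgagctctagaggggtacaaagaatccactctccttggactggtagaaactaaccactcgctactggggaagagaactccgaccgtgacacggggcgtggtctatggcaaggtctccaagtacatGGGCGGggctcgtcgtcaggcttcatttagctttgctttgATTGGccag
Tkt, chr14:30548881-30549130, plus strand: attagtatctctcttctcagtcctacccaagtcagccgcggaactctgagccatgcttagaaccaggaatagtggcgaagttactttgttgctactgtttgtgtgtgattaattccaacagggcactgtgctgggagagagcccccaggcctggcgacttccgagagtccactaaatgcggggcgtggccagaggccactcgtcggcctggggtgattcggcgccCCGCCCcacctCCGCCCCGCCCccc

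GGGCGG, the GC box, was found in 8 of the 9 genes' windows, H6pd being the exception, while 32.7% of all 32851 promoter windows hold it. The 8 windows with it were 54.4 to 64.4% G and C, and that of H6pd 38.8%. The windows compared were not matched for base content, and its part in this count was not tested. CCAAT was found in 4 of 9 windows (H6pd, Pgd, Taldo1 and Idh1) against 33.8% of all. Pgd and Taldo1 both end in the run tgattggccag, 11 bases that lie directly before the start and contain the reverse form of CCAAT. That run occurs in 0.0731% of the windows (24), and it was the longest run shared by any of the 36 pairs of the 9 genes. It was picked for its length, so that share does not measure how unusual the match is. Taldo1 and Idh1 share a run of 10 bases that occurs in 0.0426% of the windows. How long a run unrelated windows would share was not tested. CACGTG, the E-box letters, was in 0 of 9 windows against 6.02% of all, and CACCCCAC, a sterol-element core, in 0 of 9 against 2.58%. TGACNNNGC, the antioxidant-response core, was in 1 of 9, on the reverse strand in G6pdx, against 10.2%. Both strands were searched, GC boxes may overlap as they do in Tkt, and the counts leave out a further RefSeq start of Pgd and of Idh1, whose windows each hold CACCCCAC. These are matches of letters, and no binding was measured.

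G6pdx encodes glucose-6-phosphate dehydrogenase, which commits glucose 6-phosphate to the pathway and makes the first NADPH. Its normalized counts were 192, 314, 204 and 179 in control replicates 1 to 4, and 81.2, 234, 290 and 182 in AF1 peptide replicates 1 to 4. The groups overlapped, with the highest value in a control mouse and the lowest in AF1 peptide replicate 1. The control mean was 222 ± 62.0 and the AF1 peptide mean 197 ± 88.8 (SD, n = 4 each). The log2 fold change was -0.28 (SE 0.35), or 0.82-fold with a 95% interval of 0.48 to 1.40, and limma's Benjamini-Hochberg adjusted p was 0.869. Without AF1 peptide replicate 1 the difference turned to 0.09 on the log2 scale (SE 0.21). G6pdx shares 6.46% of its 50-base stretches with the autosomal copy G6pd2 and overlaps Ikbkg, so a part of its reads may be assigned uncertainly.

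Pgls encodes 6-phosphogluconolactonase, which opens the lactone that G6pdx leaves. Its normalized counts were 1991, 1873, 1772 and 1811 in the control mice, and 2423, 1679, 1751 and 1815 in the AF1 peptide-treated mice. Here AF1 peptide replicate 1 was the highest of all 8, the opposite end from G6pdx. The means were 1862 ± 95.7 and 1917 ± 342 (SD, n = 4 each), and the log2 fold change was 0.03 (SE 0.12, adjusted p = 0.974), which became -0.09 without that mouse. A share of 18.9% of the 50-base stretches of Pgls also lies in the overlapping gene Fam129c, the largest share among the 9 genes.

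Pgd encodes 6-phosphogluconate dehydrogenase, the enzyme of the NADPH-making step that releases carbon dioxide. Its normalized counts were 3116, 4036, 3170 and 2582 in control and 1386, 2707, 2924 and 3095 in AF1 peptide-treated mice. In replicates 2 to 4 of the AF1 peptide group the values lay within the control range, and replicate 1 lay below it at 43.0% of the control mean. The means were 3226 ± 602 and 2528 ± 778 (SD, n = 4 each). The log2 fold change of -0.40 (SE 0.24) was the most negative of the 9 and did not pass the test (adjusted p = 0.774). It was -0.13 (SE 0.14) without AF1 peptide replicate 1, and -0.49, past the unadjusted threshold of 0.05, when libraries were scaled to equal totals (adjusted p = 0.867).

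H6pd encodes hexose-6-phosphate dehydrogenase of the endoplasmic reticulum. It gave normalized counts of 5624, 6710, 5658 and 5372 in control and 5435, 6058, 5869 and 5992 in AF1 peptide-treated mice, with AF1 peptide replicate 1 inside the control range. The means of 5841 ± 593 and 5838 ± 280 (SD, n = 4 each) gave a log2 fold change of 0.00 (95% interval -0.22 to 0.23, adjusted p = 0.996), and 0.04 without AF1 peptide replicate 1. Its highest and lowest mice differed by 1.25-fold, the least of the 9 genes, while those of G6pdx, which catalyses the same chemistry in the cytosol, differed by 3.87-fold.

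**Figure D1:**
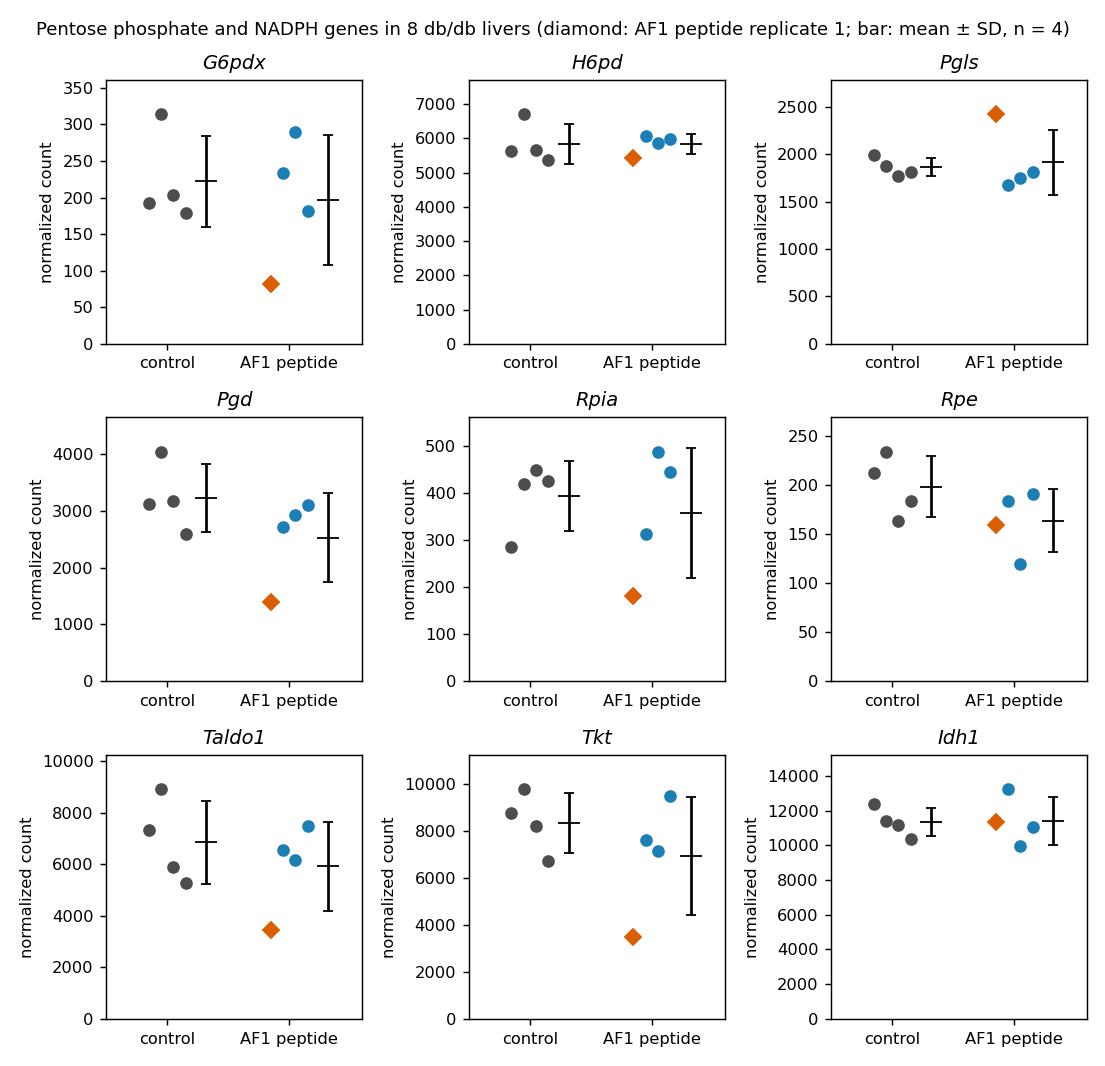
Normalized count (linear axis from 0) of each of the 9 genes in 4 control and 4 AF1 peptide-treated db/db livers, with 1 point per mouse, an orange diamond for AF1 peptide replicate 1 and a bar for the mean ± SD. The diamond is the lowest point for G6pdx, Pgd, Rpia, Taldo1 and Tkt, the highest for Pgls, and within the control range for H6pd and Idh1, and the groups overlap in all 9 panels.

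In the non-oxidative arm, Rpia encodes the isomerase that makes ribose 5-phosphate. Its normalized counts were 284, 418, 448 and 425 in control and 182, 312, 487 and 444 in AF1 peptide-treated mice, so that both the lowest and the highest mouse were in the AF1 peptide group. The means were 393 ± 73.9 and 356 ± 138 (SD, n = 4 each). The log2 fold change was -0.22 (SE 0.28, adjusted p = 0.879) and 0.07 without AF1 peptide replicate 1. Rpe encodes the epimerase that makes xylulose 5-phosphate. Its normalized counts were 212, 234, 163 and 184 in control and 159, 184, 120 and 191 in AF1 peptide-treated mice. The lowest mouse for Rpe was AF1 peptide replicate 3, and the groups overlapped. The means were 198 ± 31.2 and 164 ± 32.1 (SD, n = 4 each). The log2 fold change of -0.29 (SE 0.18, adjusted p = 0.774) was much the same without AF1 peptide replicate 1, at -0.28 (SE 0.19, adjusted p = 0.629), but -0.15 without AF1 peptide replicate 3 (adjusted p = 0.83). Rpe overlaps Kansl1l and was among the least sequenced of the 9, with at most 257 reads in a mouse, so that counting alone gives a coefficient of variation of 7.64% against 15.7% between control mice.

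Taldo1 and Tkt encode transaldolase and transketolase, the enzymes that move 3-carbon and 2-carbon units between sugars, transketolase with thiamine diphosphate as cofactor. Taldo1 had normalized counts of 7333, 8907, 5901 and 5257 in control and 3455, 6568, 6173 and 7489 in AF1 peptide-treated mice. Tkt had 8761, 9784, 8203 and 6710 in control and 3493, 7616, 7135 and 9482 in AF1 peptide-treated mice. For both genes AF1 peptide replicates 2 to 4 lay within the control range and replicate 1 lay below it, at 50.4% of the control mean for Taldo1 and 41.8% for Tkt. The means of Taldo1 were 6849 ± 1623 and 5921 ± 1734 (SD, n = 4 each), a log2 fold change of -0.24 (SE 0.24, adjusted p = 0.849). Those of Tkt were 8364 ± 1283 and 6931 ± 2506 (SD, n = 4 each), a log2 fold change of -0.35 (SE 0.27, adjusted p = 0.804). Without AF1 peptide replicate 1 these became 0.00 and -0.05. Counting error was small for both (coefficients of variation of 1.31% and 1.21%), far below the 23.7% and 15.3% between control mice. Taldo1 shares 6.67% of its 50-base stretches with Gm17823, and Tkt overlaps Mir3076.

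Idh1, the isocitrate dehydrogenase of the cytosol, had normalized counts of 12355, 11395, 11194 and 10364 in control and 11362, 13224, 9953 and 11052 in AF1 peptide-treated mice. AF1 peptide replicate 1 sat at 100% of the control mean. The means of 11327 ± 818 and 11398 ± 1359 (SD, n = 4 each) gave 1.00-fold with a 95% interval of 0.83 to 1.21 (adjusted p = 0.996), and a log2 fold change of 0.00 with or without that mouse.

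**Figure D2:**
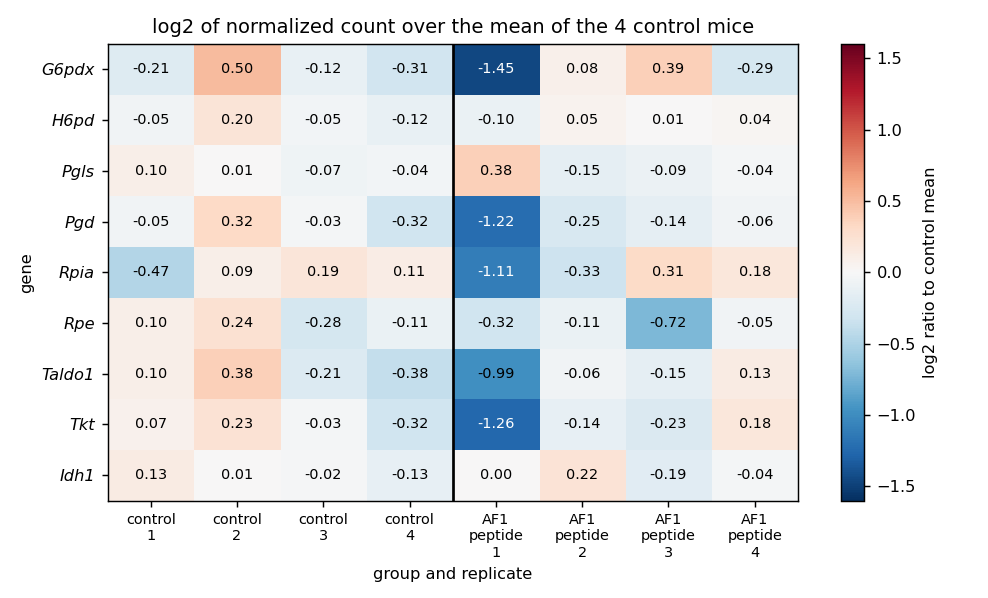
Each cell gives the log2 ratio of a gene's normalized count in 1 mouse (column) to the mean of the 4 control mice, with blue below and red above that mean. The column of AF1 peptide replicate 1 reads -1.45 for G6pdx, -1.22 for Pgd, -1.11 for Rpia, -0.99 for Taldo1 and -1.26 for Tkt, beside -0.10 for H6pd, 0.38 for Pgls and 0.00 for Idh1.

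Across the 9 genes, 0 were called lower and 0 higher at an unadjusted p under 0.05 in limma, where 3.03% of all 15989 genes tested were called lower and 3.16% higher. With 9 genes, a count of 0 is near that background. edgeR and DESeq2 on the recovered reads also called 0 of the 9 at an unadjusted p under 0.05, against 6.48% and 6.31% of all genes they tested. Without AF1 peptide replicate 1 limma again called 0 of the 9, where 5.48% of all genes were called lower and 4.58% higher. No adjusted p was under 0.05 for the 9 genes in limma, edgeR or DESeq2, and over all genes the smallest was 0.763 in limma, 0.751 in edgeR and 0.000678 in DESeq2, which had 3 genes under 0.05. The groups did not overlap in 0 of the 9 genes, against 3.9% of all genes tested. The median log2 fold change of the 9 was -0.24 with 6 lower and 3 higher, against -0.01 for all genes tested, and it was 0.00 without AF1 peptide replicate 1. That mouse was the lowest of the 8 for 5 of the 9 genes (55.6%) and for 23.4% of all genes tested. Control replicate 2 was the highest mouse for 6 of the 9, namely G6pdx, H6pd, Pgd, Rpe, Taldo1 and Tkt.

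**Figure D3:**
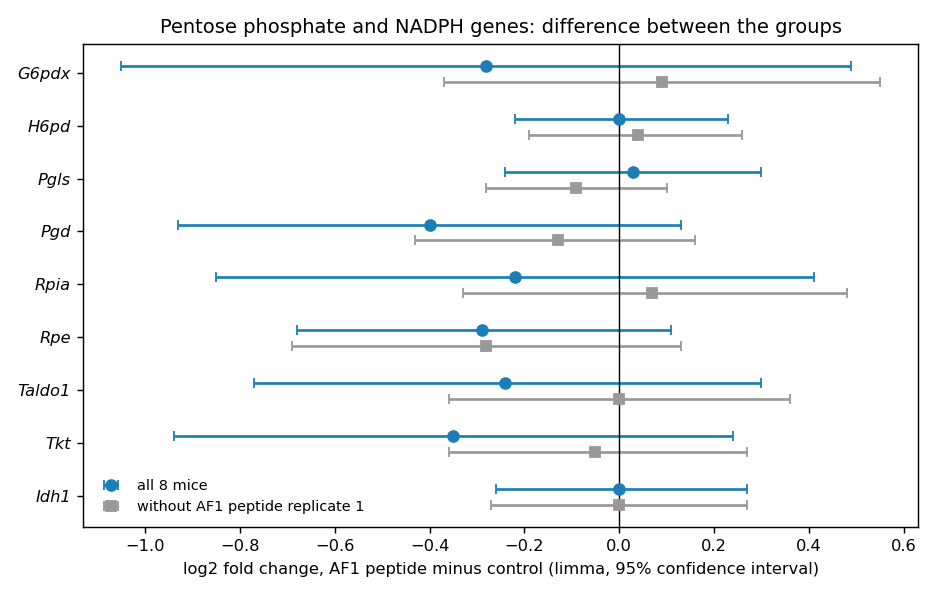
Log2 fold change (AF1 peptide minus control, limma) of the 9 genes with its 95% confidence interval, for all 8 mice (blue circles) and without AF1 peptide replicate 1 (grey squares). Every interval includes 0, and the estimate moves toward 0 or past it without that mouse for G6pdx, Pgd, Rpia, Taldo1 and Tkt while Rpe stays near -0.28 without it.

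Levels between genes were compared as normalized counts per kb of transcript, averaged over the 8 mice. Taldo1 (5196 per kb) and Idh1 (4936) led, and their ranges overlapped. Tkt (2373) and Pgls (2116) came next and overlapped each other, as did Pgd (1297) and H6pd (1278) after them. Rpia (205 per kb), G6pdx (79.0) and Rpe (67.2) were the least abundant, and G6pdx and Rpe were not separated by their spread. This is an order of means and not of separate tiers. Tkt (1084 to 3036) also overlapped Taldo1 (from 2811), Pgd (to 1819) and H6pd (to 1468), and Rpia (from 99.5) overlapped G6pdx (to 118). The uncertain read assignment of Pgls and G6pdx given above applies here too. For scale, the malic enzyme transcript Me1, the other main cytosolic source of NADPH, stood at 2368 per kb and mitochondrial Idh2 at 2205. H6pd thus exceeded G6pdx per kb in every mouse, by 11.7 to 19.1 times in 7 mice and 38.8 times in AF1 peptide replicate 1. Idh1 exceeded Pgd by 2.72 to 4.71 times in the 7 mice and 7.90 times in that replicate. The ratio of Tkt to Taldo1 stayed between 0.39 and 0.53 in all 8 mice. Over 4 such ratios, the fourth being Pgd to G6pdx, exact two-sided permutation tests on the log2 scale gave adjusted p values of 0.628 to 0.629 between the groups, where 4 mice against 4 allow no unadjusted p below 0.0286. Without AF1 peptide replicate 1 the log2 difference between the groups went from 0.29 to -0.05 for H6pd to G6pdx and from 0.40 to 0.14 for Idh1 to Pgd, and was -0.05 for Tkt to Taldo1 and -0.22 for Pgd to G6pdx (both -0.11 with all mice).

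**Figure D4:**
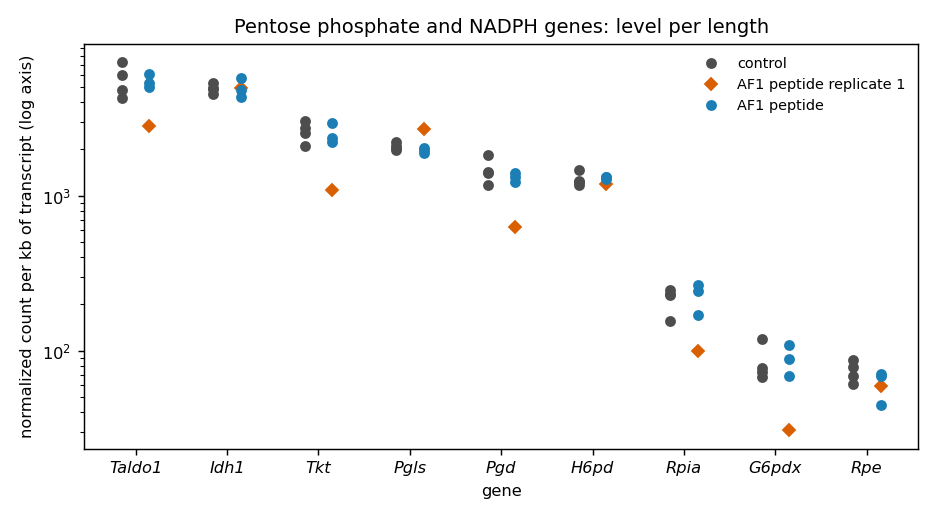
Normalized count per kb of transcript (log axis) of the 9 genes, ordered by their mean, with 1 point per mouse for control (grey) and AF1 peptide (blue, orange diamond for replicate 1). Taldo1 and Idh1 lie near 5196 and 4936 on average, and G6pdx and Rpe near 79.0 and 67.2.

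Of the 36 pairs of these genes, 3 were correlated over the 8 mice at an adjusted p under 0.05 by exact permutation of Pearson's r. They were Pgd with Tkt (r = 0.97, rho = 0.88, adjusted p = 0.0125 for r and 0.13 for rho by exact permutation), Taldo1 with Tkt (r = 0.96, rho = 0.93, 0.0125 and 0.0804) and Pgd with Taldo1 (r = 0.94, rho = 0.71, 0.0262 and 0.259). None of the 36 passed by Spearman's rho. Without AF1 peptide replicate 1 these pairs kept r of 0.82, 0.90 and 0.82 over 7 mice, with adjusted p values of 0.169, 0.169 and 0.194 by exact permutation. The 3 pairs also lost the call with control replicate 2 left out (adjusted p = 0.0857 to 0.162 by exact permutation) or control replicate 4 (0.0679 to 0.126), where r stayed between 0.93 and 0.98. Pgd with Taldo1 alone lost it without control replicate 1 (0.0571) or AF1 peptide replicate 4 (0.0548). These fits with 1 mouse left out were added after the data were seen. With the 2 mice farthest from the median left out, AF1 peptide replicate 1 and control replicate 2, r was 0.79, 0.86 and 0.59. G6pdx with Pgd had r = 0.90 over 8 mice and -0.06 with those 2 left out. The groups were pooled in these correlations.

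The genes outside the set whose log2 levels most resembled the mean standardized level of the 9 were Tmem38b (r = 0.980), Ly6d (0.980), Rai2 (0.977), Entpd5 (0.973) and Pmp22 (0.971), out of 12434 genes compared over the 8 mice. Tmem38b encodes a cation channel of the endoplasmic reticulum and Entpd5 a nucleotide-cleaving enzyme of the same compartment. Ly6d had the widest range of the 5, with 5128, 11222, 5367 and 3603 normalized counts in control and 1375, 4712, 3616 and 5780 in AF1 peptide-treated mice. In all 5, AF1 peptide replicate 1 was lowest and control replicate 2 highest. That follows from how they were picked, since the mean level of the 9 was also lowest (-1.11) and highest (0.93) in these mice. Without AF1 peptide replicate 1 the r of the 5 genes was 0.94 to 0.97.

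Genes listed as other sources of NADPH were read in the same fit. Of 11 tested, 2 were called lower and 0 higher at an unadjusted p under 0.05, against 3.03% and 3.16% of all genes tested. Mthfd2l, a mitochondrial folate enzyme, had 73.3, 73.9, 84.3 and 65.3 normalized counts in control and 68.1, 53.0, 44.5 and 43.2 in AF1 peptide-treated mice. Its log2 fold change was -0.52 (SE 0.19, adjusted p = 0.763). Mthfd2l had only 29 to 89 reads per mouse. Counting alone gives it a coefficient of variation of 13.1%, against 10.5% between control mice. Nnt, the transhydrogenase of the inner mitochondrial membrane, had 991, 885, 1073 and 1289 in control and 891, 822, 956 and 779 in AF1 peptide-treated mice, and its log2 fold change was -0.29 (SE 0.13, adjusted p = 0.763). Both passed the same threshold without AF1 peptide replicate 1, at -0.65 and -0.31. In both genes the groups overlapped. Only transcripts were measured, so the counts of Mthfd2l and Nnt show neither that working enzyme was made nor that it changed. Whether the Nnt gene of these mice encodes a working enzyme was not examined. Me1, the malic enzyme of the cytosol, was named after its values were seen. It had 11195, 12009, 7370 and 6936 in control and 2871, 7048, 7089 and 7772 in AF1 peptide-treated mice. Its log2 fold change was -0.66 (SE 0.31, adjusted p = 0.763), not past the unadjusted threshold, and -0.32 without AF1 peptide replicate 1. Mitochondrial Idh2 was called lower without that mouse, at -0.30 (adjusted p = 0.485), and stood at -0.07 with all 8 mice. The list's median was -0.07, and -0.15 without it.

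Among 16 enzymes that spend NADPH, 1 was called lower and 0 higher, near the 3.03% and 3.16% over all genes. Fasn, the fatty acid synthase, had normalized counts of 42323, 44932, 41616 and 39709 in control and 20625, 34726, 32875 and 36334 in AF1 peptide-treated mice, and the groups did not overlap, as in 3.9% of all genes tested. Its log2 fold change was -0.47 (SE 0.19, adjusted p = 0.763), and -0.28 without AF1 peptide replicate 1, where it still passed the unadjusted threshold. Por, the reductase that feeds electrons to cytochromes P450, went the other way in that mouse, at 24662 normalized counts against 8616 to 11887 in the other 7 (named after its values were seen). Median log2 fold change over the 16 was -0.10, and -0.13 without that mouse.

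Of 8 regulators of these genes, 1 was called lower and 0 higher, again beside 3.03% and 3.16% over all genes. Mlx, the partner of the carbohydrate-response factor Mlxipl, had 242, 198, 172 and 218 normalized counts in control and 181, 161, 146 and 150 in AF1 peptide-treated mice. Its log2 fold change was -0.37 (SE 0.14, adjusted p = 0.763), and -0.44, again past the unadjusted threshold, without AF1 peptide replicate 1. The groups overlapped for Mlx. Nr1h3, the lipid-sensing nuclear receptor LXRα, was the only gene of this list whose groups did not overlap (named after its values were seen). It had 2298 to 2474 normalized counts in control and 2485 to 3316 in AF1 peptide-treated mice. Its log2 fold change of 0.17 (adjusted p = 0.777) was not called, and was 0.07 without AF1 peptide replicate 1. Among 9 further enzymes of pentose metabolism, 0 were called in either direction, and the smallest p values were those of Xylb, the xylulokinase (log2 fold change 0.24, adjusted p = 0.766), and Rbks, the ribokinase (0.29, adjusted p = 0.774, and 0.16 without AF1 peptide replicate 1). Without AF1 peptide replicate 1 Xylb passed the unadjusted threshold, at 0.32. Of 6 genes that supply glucose 6-phosphate or handle it in the endoplasmic reticulum, 0 were called in either direction. G6pc3, a glucose-6-phosphatase found in most tissues, came closest at 0.24 (adjusted p = 0.763), and passed the unadjusted threshold without AF1 peptide replicate 1 at 0.31. G6pc, the glucose-6-phosphatase of hepatocytes, also passed without that mouse, at -0.63 (adjusted p = 0.491).

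**Figure D5:**
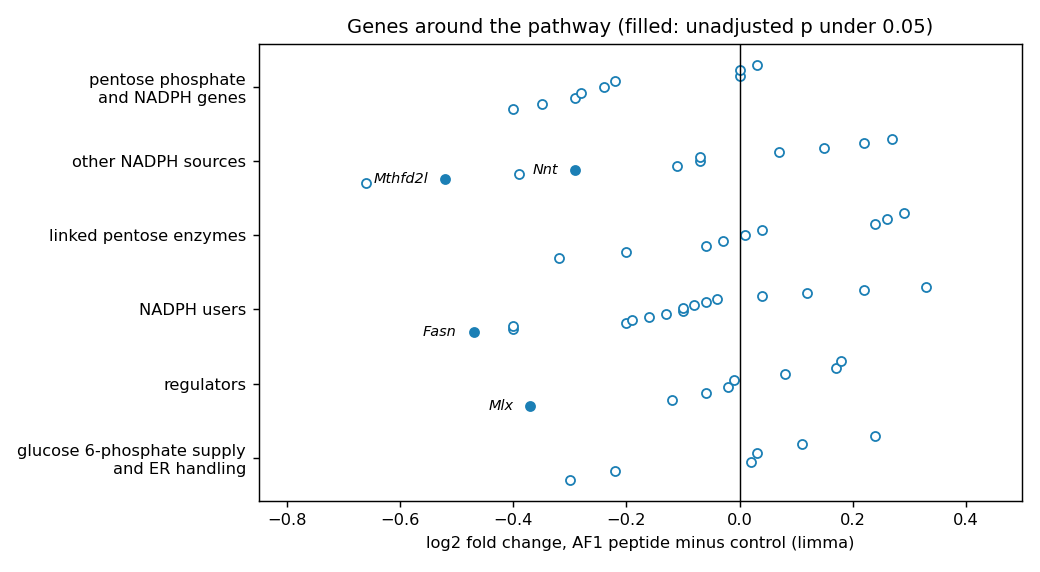
Log2 fold change (AF1 peptide minus control, limma) of every tested gene in the 9-gene set and in 5 lists around it, with 1 circle per gene, filled and named where the unadjusted p was under 0.05. Filled circles are Mthfd2l, Nnt, Fasn and Mlx, all lower in AF1 peptide-treated mice, and the 9 genes of the set have open circles from -0.40 to 0.03.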

How the data were processed

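Liver RNA of 8 male db/db mice, 4 per group, was sequenced from stranded mRNA libraries. Per the authors' methods, adapter trimming used Trim Galore 0.6.7, alignment HISAT2 2.2.1, file handling SAMtools 1.17, and gene counting GenomicAlignments. The submitters' processing notes name mm39; the annotation and the use of strand in counting are not given in the sources used here. The authors deposited a signal per gene and mouse, the read count divided by 1 size factor per library. Dividing out the steps recovered whole reads for 100% of 172256 values (within 0.01 reads), giving 23031880 to 45117528 reads per mouse. Groups and replicate numbers came from the labels.

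The log2(normalized count + 1) was compared with limma 3.58.1 (R 4.3.3, intensity trend, two-sided) over the 15989 genes with a mean of at least 10, and fold changes on this scale understate those of low genes. The call was an unadjusted p under 0.05, the threshold of the study's methods, and Benjamini-Hochberg adjustment ran over all genes. On simulated counts with 194 of 15810 genes changed 2-fold, 93.3% of changed and 4.65% of unchanged genes had a p under 0.05. The simulation drew genes independently and held no outlying mouse, so these shares may not hold for the libraries here. Same-numbered mice deviated from their group means with correlations of 0.235, 0.024, 0.216 and -0.064, so the numbers were not taken as pairs. Alternatives were other pseudocounts, filters, scalings and variances, a replicate block, a fold threshold, edgeR 4.0.16, DESeq2 1.42.0 and leaving out each mouse. The 9 genes and the lists were chosen with earlier results of these data known. Named genes are the 9, list genes with an unadjusted p under 0.05 (otherwise the 1 or 2 smallest p), and the 5 most similar genes with a mean of at least 50. Lengths are of the longest principal transcript in GENCODE M21. Promoters are from RefSeq (GRCm38.p6), where all 9 symbols matched; the build differs from that of the reads, and no coordinate was carried over. G6pd2 was not analysed here. Proteins were not compared.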

Additional observations from a re-analysis of the deposited data

How the results depend on the processing

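Depth was not the limit for H6pd, Pgls, Pgd, Taldo1, Tkt and Idh1, where counting error was at most 2.36%, and the spread between 4 mice per group set the intervals, while for G6pdx, Rpia and Rpe counting added 5.52 to 7.64%. Of 171 values of the 9 genes under the alternatives, 152 kept their direction and side of the threshold, 18 changed sign and 1 newly passed the threshold. Equal totals, which shifted the median log2 fold change of all genes from -0.0083 to -0.0987, called 1 of the 9 lower (Pgd, -0.49), with 769 genes lower and 129 higher over the table in place of 484 and 506, and turned H6pd to -0.09, Pgls to -0.06 and Idh1 to -0.09. TMM scaling gave -0.0040 for H6pd and -0.0032 for Idh1, and edgeR gave -0.0015 for H6pd. A fold change of more than 1.3 left 304 genes lower and 286 higher. Leaving out each mouse in turn gave 255 (without control replicate 2) to 876 (without AF1 peptide replicate 1) genes lower and 285 to 732 higher over the same 2 settings, and 0 of the 9 in either direction. In these fits the log2 fold change ranged from -0.52 to 0.09 for G6pdx, -0.04 to 0.07 for H6pd, -0.09 to 0.09 for Pgls, -0.40 to 0.07 for Rpia, -0.37 to 0.0027 for Taldo1, -0.07 to 0.07 for Idh1, -0.52 to -0.13 for Pgd, -0.37 to -0.15 for Rpe and -0.53 to -0.05 for Tkt. For G6pdx, Pgls, Rpia and Taldo1 the sign turned, among these fits, only without AF1 peptide replicate 1. The cause of these changes was not tested. With the replicate number as a block, 0 of the 9 genes were called and 647 genes were lower and 597 higher. The same-numbered mice did not each correlate best with one another.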
